A study of Mus musculus with 9 samples.

Results

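The genes described here are 10 transcription factor and early response genes, Jun, Junb, Jund, Fos, Fosb, Fosl1, Fosl2, Atf3, Egr1 and Ier3, taken by their symbols from a table of read counts on 23955 gene symbols. All 10 were found in the table. They were measured by RNA-seq in 9 samples of mouse gut organoids, epithelial cultures grown from gut tissue, in 3 groups of 3. MIN organoids came from normal-looking gut epithelium of APCmin/+ mice, Adenoma organoids from the adenomatous polyps of such mice, and Sulindac organoids from adenomatous polyps treated with sulindac, a nonsteroidal anti-inflammatory drug (NSAID) that inhibits cyclooxygenases. All 3 groups therefore carry the Apc mutation, and none is wild type. The medium of every culture held Noggin, EGF, bFGF, R-spondin1 and B27. The sulindac dose, its duration for the organoids, any vehicle given to the untreated cultures, the age of the mice and whether 1 mouse gave several cultures are not stated in the sources used here, so p-values measure the spread between these samples.

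AP-1 is a dimer of basic leucine zipper proteins, made of members of the Jun family paired among themselves or with members of the Fos or ATF families, and it binds the sequence TGANTCA in promoters and enhancers. Many of its genes are immediate early genes, which cells transcribe within minutes of a growth factor, cytokine or stress signal without first making new protein, mostly through MAP kinases and serum response factor. The gut epithelium is known for Jun and its kinase JNK acting together with Wnt signaling in crypt and adenoma cells, while Fos and Egr1 are classic responders to EGF.

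By the RefSeq annotation of GRCm38.p6, Jun lies at chr4:95049036-95052222, Fos at chr12:85473890-85477274 and Ier3 at chr17:35821713-35822911. Junb lies at chr8:84976909-84978748, Jund at chr8:70697739-70700616, Fosb at chr7:19302696-19310118 and Fosl1 at chr19:5447698-5455938. Fosl2 lies at chr5:32136472-32157840 and Atf3 at chr1:191170296-191183333. The counts themselves were made on another build, mm9, so these positions locate the genes and were not used to count them. The 100 bases before the RefSeq start (GRCm38.p6) are printed 5′ to 3′ on the strand of the gene for Jun, Fos and Ier3, because these were the genes that passed the test in at least 1 comparison. Capitals mark the matches to TGACNTCA, to TGACG and to TATAA. The stretches are chr4:95052223-95052322 on the minus strand for Jun, chr12:85473790-85473889 on the plus strand for Fos and chr17:35821613-35821712 on the plus strand for Ier3.
Jun: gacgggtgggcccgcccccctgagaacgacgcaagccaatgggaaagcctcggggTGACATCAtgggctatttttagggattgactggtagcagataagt
Fos: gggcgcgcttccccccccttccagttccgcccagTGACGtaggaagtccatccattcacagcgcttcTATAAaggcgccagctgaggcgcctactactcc
Ier3: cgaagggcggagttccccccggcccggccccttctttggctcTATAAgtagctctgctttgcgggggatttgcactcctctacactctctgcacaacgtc

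RefSeq promoter windows, 250 bases before to 50 bases after the start, were found for 8 of the 10 genes, those other than Fosl1 and Egr1. They were searched on both strands for motifs chosen after the sequences were seen. TGACNTCA, a variant of the AP-1 site with 1 more base in its middle, was in 1 of the 8 windows, that of Jun, as TGACATCA with its first base 45 bases before the start. It was in 8.83% of all 32851 windows. TGACG, the core of the cyclic AMP response element, was in 4 of the 8, those of Fos, Fosb, Junb and Atf3, against 20.8% of all windows, and the 2 matches of Fos began 129 and 66 bases before its start. A TGACNTCA match whose middle base is G would also hold TGACG, which the match of Jun does not. TATAA was in 3 of the 8, those of Fos, Ier3 and Junb, against 24.9%. TGANTCA was in none of the 8 windows against 7.81% of all, and the serum response element, searched by its usual consensus, was in none against 1.63%. Bases farther upstream than 250 and the promoters of Fosl1 and Egr1 were not searched, so these absences do not show that the genes lack either site.

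The samples held 30881206 to 48412477 counts, at which 3 counts in a library, used here as the floor, correspond to 0.0641 to 0.10 CPM, that is, counts scaled to a common library total, after TMM normalization. The epithelial markers Epcam, Cdh1, Krt8, Krt18 and Vil1 were abundant in all 9 samples, with a summed level of 2900 to 6307 CPM. The 6 fibroblast and muscle markers summed to 0.38 to 0.76 CPM in MIN, 1.97 to 2.37 in Adenoma and 0.83 to 1.08 in Sulindac. Of these, Col1a2, Col3a1 and Dcn were at 0 in every sample, while Col1a1 had 10 to 22 counts in MIN, 32 to 54 in Adenoma and 11 to 17 in Sulindac, and Pdgfra 5 to 8, 25 to 39 and 12 to 20. The 7 leukocyte markers summed to 5.02 to 6.70 CPM in MIN, 8.35 to 16.7 in Adenoma and 3.09 to 4.30 in Sulindac. Ptprc had at most 8 counts, but Cd68 had 53 to 83, 284 to 560 and 93 to 117 counts and Itgam 148 to 159, 4 to 13 and 0 to 5. The 3 endothelial markers summed to at most 0.57 CPM, with Cdh5 at 1 count or less in every sample. These levels differed between the groups compared below, and their part in the results was not tested. Replicate 3 of MIN and replicate 3 of Adenoma stood apart from the others of their groups. Their chi-square per gene against the other replicates was 69.0 to 81.7, whereas it was 19.4 and 20.7 for the remaining pair of MIN and of Adenoma and 18.6 to 33.4 within Sulindac. Deviations from the group means correlated weakly between MIN and Adenoma samples of the same number (0.13, 0.12 and 0.19). What a number marks is not stated. For Adenoma against MIN, the value with the replicate number as a block is given where it changes a call. A gene is called here when its p from the quasi-likelihood test of edgeR, adjusted over all genes tested by the Benjamini-Hochberg method, is under a false discovery rate (FDR) of 1%. Each fit held only the groups compared. In these bulk samples, fewer cells of a type and less RNA per cell cannot be told apart.

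Between Adenoma and MIN organoids, 2 of the 10 genes were called. Fos fell 8.15-fold between the group means and Jun rose 2.01-fold, so the best known AP-1 pair moved in opposite directions. The call of Jun was lost in 9 of 16 alternative analyses, the replicate block among them. Over all 13744 genes tested in this comparison, 18.5% were called higher in Adenoma and 20.1% lower, so that 1 of 10 in each direction is no larger a share than that of the table as a whole. The 3 samples of each group did not overlap for 3 of the 10 genes (Jun, Fos and Atf3), against 62.8% of all genes. For the 10 genes the median log2 change was -0.12, beside -0.01 over all genes. Their median standard error (SE) was 0.36 on the log2 scale, against 0.16 over all genes.

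Between Sulindac and Adenoma organoids, none of the 9 genes tested was called by edgeR, while 6 had an unadjusted p under 0.05 and DESeq2 called 4, with Fosl2, Atf3 and Ier3 higher and Jun lower at an FDR of 1%. Here 8.32% of the 12962 genes tested were called higher in Sulindac and 9.1% lower, and 44.7% had an unadjusted p under 0.05. With library totals in place of TMM scaling, the split over all genes moved from 1078 higher and 1179 lower to 603 higher and 1983 lower, and the all-gene median shifted with it from -0.01 to -0.18 on the log2 scale. Groups did not overlap for 6 of the 9 genes, 5 of them higher in Sulindac and Jun lower, against 48.9% of all genes. For the 9 genes the median log2 change was 0.61, beside -0.01 over all genes.

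Between Sulindac and MIN organoids, Fos was called lower, 7.42-fold between the means, and Ier3 was called higher, 3.07-fold. The background was the highest of the 3 comparisons, with 23% of the 13551 genes tested called higher in Sulindac and 26.8% called lower. Groups did not overlap for 5 of the 9 genes tested, 4 of them higher in Sulindac and Fos lower, against 69.6% of all genes. The 3 comparisons share their groups, so they are not independent of each other, and each gene's values are given side by side below. Fosb was removed by the low-count filter from both comparisons with Sulindac.

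**Figure D1:**
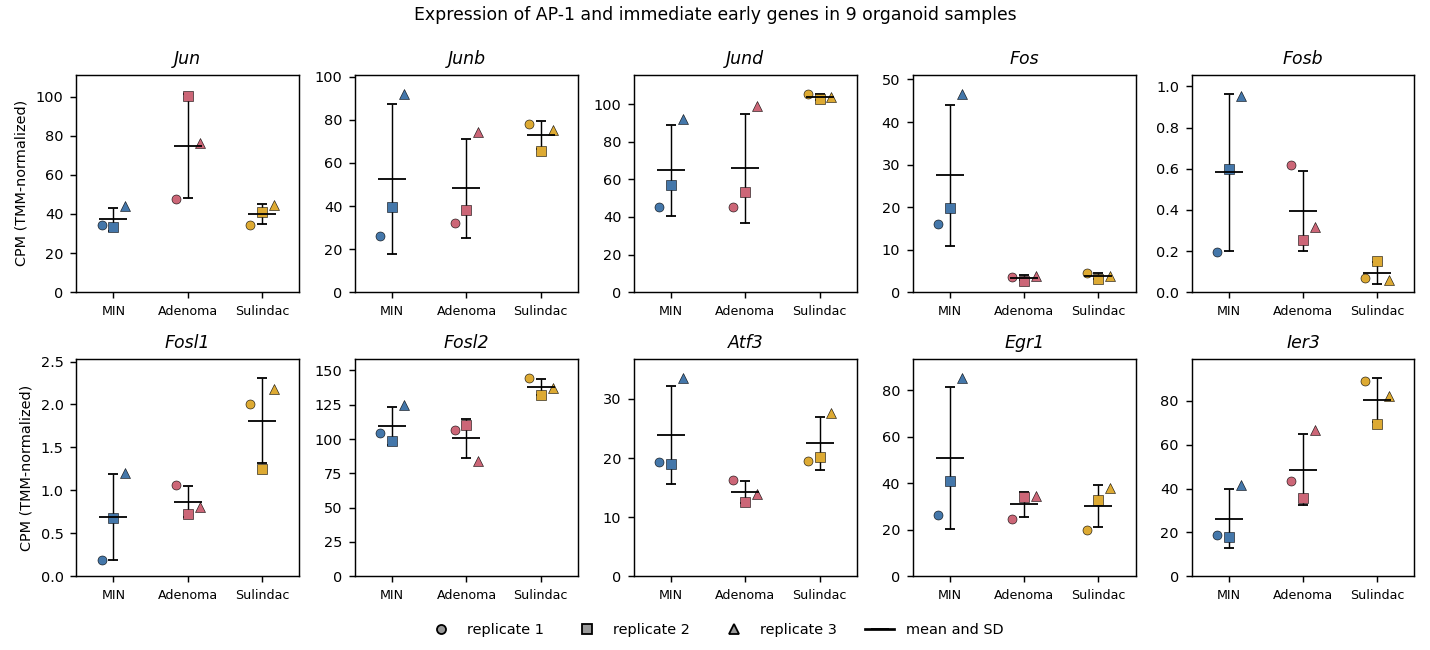
CPM after TMM normalization of each of the 10 genes in the MIN, Adenoma and Sulindac samples, on linear axes that start at 0. Points are samples, with circles for replicate 1, squares for replicate 2 and triangles for replicate 3, and the bars are the mean and SD of 3. Fos lies at 15.99 to 46.5 in MIN and at 2.71 to 4.40 in the other 6 samples, and the triangle of MIN is the highest MIN point in all 10 panels.

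**Figure D2:**
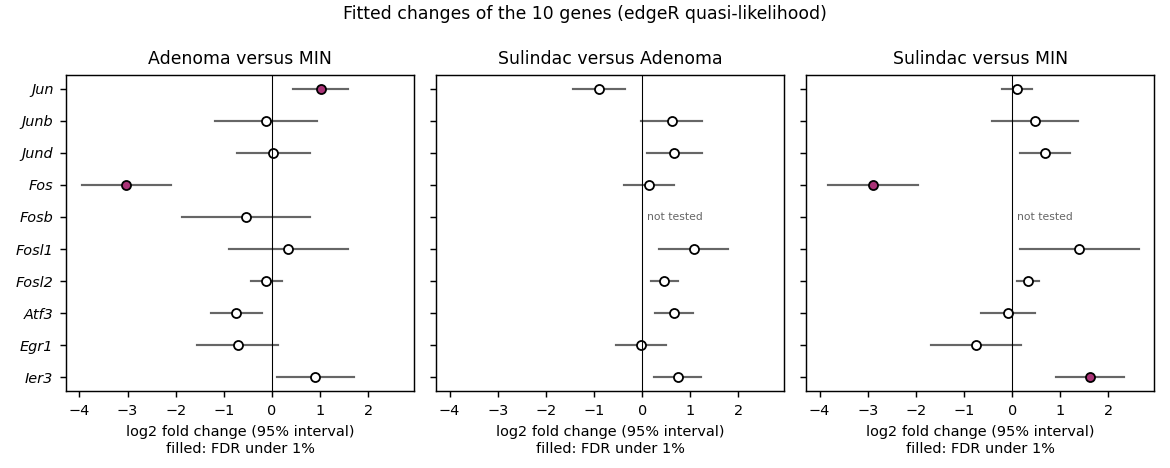
Fitted log2 fold change of each gene with its 95% interval in the 3 comparisons, from edgeR's quasi-likelihood test. Filled points passed an FDR of 1%, which were Jun and Fos in Adenoma versus MIN and Fos and Ier3 in Sulindac versus MIN. Fosb was not tested in the comparisons with Sulindac.

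Jun encodes the AP-1 subunit that JNK phosphorylates. In MIN it was at 34.3, 33.5 and 44.0 CPM in replicates 1, 2 and 3, in Adenoma at 47.5, 100.2 and 76.5, and in Sulindac at 34.4, 41.0 and 44.4. All 3 Adenoma samples were above the other 6, replicate 1 of Adenoma by little, and MIN and Sulindac overlapped. The difference of Adenoma from MIN was 1.01 ± 0.25 (log2, SE, n = 3 per group) with an edgeR adjusted p = 0.00864. This call was close to the threshold. With the replicate block it was lost (0.95, edgeR adjusted p = 0.0104), and it was also lost without MIN replicate 1, 2 or 3 or Adenoma replicate 2 or 3 (edgeR adjusted p = 0.0126 to 0.0352), so that it held when Adenoma replicate 1 was left out and in no other case of leaving out 1 library. Sulindac was below Adenoma (log2 -0.90, 95% interval -1.44 to -0.35, edgeR adjusted p = 0.0212). By edgeR this was called without Adenoma replicate 1 (-1.13, edgeR adjusted p = 0.00199) but not with all samples, whereas DESeq2 called it with all samples. Between Sulindac and MIN the estimate was 0.10 with an interval of -0.21 to 0.41.

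Junb, a Jun family member often set against Jun in cell growth, was at 26.2, 39.6 and 91.8 CPM in MIN, 31.9, 38.1 and 74.5 in Adenoma and 78.0, 65.4 and 75.1 in Sulindac. Jund, the family member that resting cells keep expressing, was at 45.0, 57.2 and 92.0 CPM in MIN, 45.4, 53.1 and 98.9 in Adenoma and 105.2, 102.5 and 103.6 in Sulindac. The replicates of MIN and Adenoma followed each other number by number in both genes, with replicate 3 the highest, and the groups overlapped fully. For Adenoma against MIN the 95% interval was -1.18 to 0.94 (log2) for Junb and -0.73 to 0.79 for Jund. With the replicate block the SE fell from 0.46 to 0.13 for Junb and from 0.33 to 0.10 for Jund, around estimates of -0.02 and 0.01.

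In Sulindac the 2 genes varied little, the SD of log2(CPM + 0.5) being 0.13 for Junb and 0.02 for Jund, and all 3 Sulindac samples of Jund were above every sample of the other groups. Sulindac exceeded Adenoma by 0.61 ± 0.27 for Junb (log2, SE, n = 3 per group, edgeR adjusted p = 0.119) and by 0.67 ± 0.25 for Jund (edgeR adjusted p = 0.0671). Neither passed. Without Adenoma replicate 3, the sample that stood apart, both were called, with 1.05 for Junb (edgeR adjusted p = 0.000811) and 1.07 for Jund (edgeR adjusted p = 0.000303). Without MIN replicate 3, both were likewise called higher in Sulindac than in MIN (1.14, edgeR adjusted p = 0.00062, and 1.01, edgeR adjusted p = 2.81e-05), whereas with all samples the differences were 0.47 (edgeR adjusted p = 0.316) and 0.68 (edgeR adjusted p = 0.0282). With all samples, DESeq2 called Jund higher in Sulindac than in MIN, but not Junb. Whether counting used the strand of reads is not stated, and 52.6% of the exonic bases of Jund are overlapped on the opposite strand by the antisense gene Gm11175, so reads of the 2 genes may not be told apart.

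Fos encodes the AP-1 partner of Jun that growth factors induce most sharply. Its counts in MIN were 657, 928 and 1707, which is 15.99, 19.8 and 46.5 CPM. In Adenoma it had 125, 97 and 134 counts (3.51, 2.71 and 3.87 CPM), and in Sulindac 132, 98 and 127 (4.40, 3.00 and 3.69 CPM). The lowest MIN sample was above all 6 samples from polyps, which overlapped each other. Fos changed by -3.02 ± 0.41 from MIN to Adenoma (log2, SE, n = 3 per group, edgeR adjusted p = 0.000303) and by -2.89 ± 0.41 from MIN to Sulindac (edgeR adjusted p = 0.000402). The call held in all 16 alternative analyses of the first comparison and all 15 of the second, at -2.41 and -2.29 without MIN replicate 3, in which Fos was highest. From Adenoma to Sulindac the estimate was 0.15, with an interval of -0.38 to 0.67.

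The ratio of Fos to Jun counts within a library does not depend on how libraries are scaled. It was 0.466, 0.592 and 1.06 in MIN, 0.0738, 0.027 and 0.0507 in Adenoma and 0.128, 0.073 and 0.0832 in Sulindac. Every MIN ratio was above every ratio from polyps, while the Adenoma and Sulindac ratios overlapped by 1 sample of each. The 2 genes differ in length, so the ratio compares samples and not the amounts of the 2 transcripts.

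By edgeR, none of the other Fos family genes was called when each fit held only the groups compared, with all samples and the low-count filter. Fosb, an inducible member with a truncated isoform known from long stimulation, was scarce. It had 8, 28 and 35 counts in MIN, 22, 9 and 11 in Adenoma and 2, 5 and 2 in Sulindac, where 2 of the 3 libraries were under the floor of 3 counts. MIN and Adenoma overlapped (log2 -0.54, interval -1.87 to 0.79), and every Sulindac library had fewer counts than any other library. The filter removed Fosb from the comparisons with Sulindac. With no filter it was called lower in Sulindac than in MIN (-2.61 ± 0.67, log2, SE, edgeR adjusted p = 0.00569) but not than in Adenoma (-2.02 ± 0.61, edgeR adjusted p = 0.0281), and it was also called lower than in MIN in the fit of all 9 samples (-2.60, edgeR adjusted p = 0.00751) and by DESeq2 (adjusted p = 0.00635). These fitted values rest on 9 counts in all of Sulindac.

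Fosl1 (Fra-1), the member linked to invasive growth, had 8, 32 and 44 counts in MIN, 38, 26 and 28 in Adenoma and 60, 41 and 75 in Sulindac, or 0.19 to 1.199, 0.73 to 1.07 and 1.25 to 2.18 CPM. All Sulindac samples were above the other 6. The difference from Adenoma was 1.07 ± 0.31 (log2, SE, n = 3 per group, edgeR adjusted p = 0.0296) and that from MIN 1.40 ± 0.54 (edgeR adjusted p = 0.0486), neither called, though the latter was called without MIN replicate 3 (2.00, edgeR adjusted p = 0.00596) and not without MIN replicate 1 (0.95, edgeR adjusted p = 0.076). Of its exonic bases, 57.2% are shared with Ccdc85b on the opposite strand, and 58.9% of the 50-base stretches of its transcript also occur in that gene, so its counts are uncertain.

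Fosl2 (Fra-2), a member that many epithelia express without stimulation, was at 104.7, 99.0 and 124.8 CPM in MIN, 106.4, 110.5 and 84.3 in Adenoma and 144.2, 132.3 and 137.1 in Sulindac. The Sulindac samples were again above the other 6, while MIN and Adenoma overlapped, with an interval of -0.44 to 0.20 for their difference. Sulindac exceeded Adenoma by 0.46 ± 0.13 (log2, SE, n = 3 per group, edgeR adjusted p = 0.0218) and MIN by 0.33 ± 0.10 (edgeR adjusted p = 0.0175), with the latter called without MIN replicate 3 (0.43, edgeR adjusted p = 0.00127). DESeq2 called the difference from Adenoma with all samples (DESeq2 adjusted p = 0.00307). Fosl2 had the smallest spread of the 10 genes, with a pooled SD of 0.16 in log2(CPM + 0.5), near the all-gene median of 0.17.

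Atf3, a stress-induced ATF family factor that can pair with Jun, was at 19.3, 18.9 and 33.5 CPM in MIN, 16.3, 12.5 and 14.0 in Adenoma and 19.5, 20.2 and 27.7 in Sulindac. The 3 Adenoma samples were below the other 6. The difference of Adenoma from MIN was -0.74 ± 0.23 (log2, SE, n = 3 per group, edgeR adjusted p = 0.0265) and that of Sulindac from Adenoma 0.66 ± 0.17 (edgeR adjusted p = 0.0179), neither called. DESeq2 called both, with adjusted p = 0.00599 and 0.00161. Between Sulindac and MIN the interval was -0.64 to 0.46.

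Egr1, a zinc finger factor induced through serum response factor, was at 26.5, 40.9 and 85.1 CPM in MIN, 24.5, 33.9 and 34.3 in Adenoma and 20.04, 32.7 and 37.8 in Sulindac. All groups overlapped, MIN only through its sample at 26.5 CPM. The MIN samples at 40.9 and 85.1 CPM, the latter replicate 3, were above every sample from polyps. The intervals were -1.56 to 0.13 for Adenoma against MIN (log2 -0.72, edgeR adjusted p = 0.139), -0.54 to 0.49 for Sulindac against Adenoma and -1.68 to 0.18 for Sulindac against MIN. Without MIN replicate 3 the first of these estimates was -0.13 and the last -0.16.

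Ier3, an early response gene that acts on cell survival and on ERK signaling and is no AP-1 subunit, was at 18.9, 18.0 and 41.7 CPM in MIN, 43.6, 35.6 and 66.8 in Adenoma and 89.2, 69.6 and 82.1 in Sulindac. The Sulindac samples were above the other 6, and MIN and Adenoma overlapped through MIN replicate 3. Sulindac exceeded MIN by 1.62 ± 0.31 (log2, SE, n = 3 per group, edgeR adjusted p = 0.002). That call held in 12 of 15 alternative analyses and was lost with no low-count filter, without MIN replicate 2 and without Sulindac replicate 3 (edgeR adjusted p = 0.0175, 0.0116 and 0.0103). Adenoma against MIN gave 0.90 ± 0.35 (edgeR adjusted p = 0.0597), not called. With the replicate block it was called (0.96 ± 0.13, edgeR adjusted p = 0.0014), each Adenoma sample exceeding the MIN sample of its number, and so it was without MIN replicate 3 (1.40, edgeR adjusted p = 0.00344). Sulindac against Adenoma gave 0.74 ± 0.21 (edgeR adjusted p = 0.0279), called by edgeR when Adenoma replicate 3 was left out (1.02, edgeR adjusted p = 0.00169) and by DESeq2 with all samples.

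The 10 genes varied more among replicates than most genes did. The SD of log2(CPM + 0.5) within MIN had a median of 0.59 over the 10 genes against 0.14 over all genes tested, and all 10 were above the latter. In Adenoma the medians were 0.29 and 0.17, again with all 10 above, and in Sulindac 0.18 and 0.12, with 8 of 10 above. Much of the spread of MIN lay in 1 library. All 10 genes were highest of the MIN samples in replicate 3, as were 41.5% of the 13883 genes tested in any comparison. In that library the 10 genes exceeded the mean of the other MIN samples by a median of 0.88 on the log2 scale, with a range of 0.29 to 1.498, against 0.00 over all genes. A list of 30 other immediate early genes exceeded it by a median of 0.57, whereas 11 heat shock genes were at -0.12. In Adenoma replicate 3 the median of the 10 genes was 0.20, and Junb, Jund, Fos, Egr1 and Ier3 were highest there. The part of handling or culture state in these values was not tested.

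**Figure D3:**
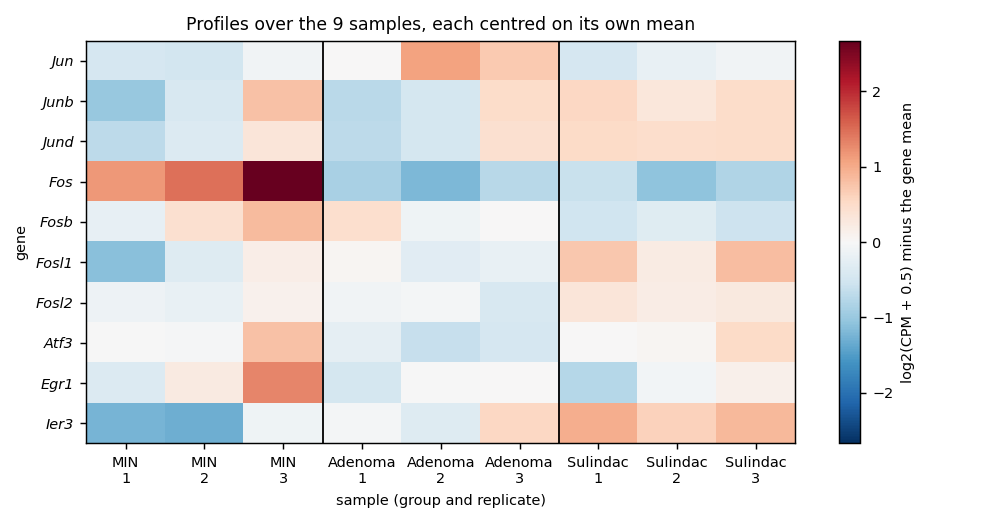
Log2(CPM + 0.5) of each gene in each of the 9 samples, minus the mean of that gene, in red above its mean and blue below. MIN replicate 3 is the reddest MIN column for all 10 genes, with Fos the most extreme. The Sulindac columns are above the gene mean in all 3 samples for Junb, Jund, Fosl1, Fosl2 and Ier3, and for Atf3, there by little in replicate 1.

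Between genes, levels are compared per kilobase (kb) of the longest coding transcript. For Jund this was 1668 bases, although its RefSeq interval given above is longer. A longer transcript would lower its level per kb, so its place in the orders below depends on that length. Its counts may also hold reads of Gm11175. In MIN the mean CPM per kb was 38.8 for Jund, 29.0 for Junb, 23.1 for Ier3, 16.7 for Fosl2, 13.0 for Fos, 12.1 for Atf3, 11.7 for Jun and 11.3 for Egr1, and each neighbor in this order overlapped the next. Only Fosl1 (0.371) and Fosb (0.154) lay below the lowest sample of the other 8, and they overlapped each other. In Adenoma, Fos dropped to 1.60 CPM per kb, below all samples of Egr1 (6.89) and above all samples of Fosl1 (0.466), and Jun stood at 23.4, next below Junb (26.6).

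In Sulindac the order was clearer. Ier3 (71.0 CPM per kb) and Jund (62.2) overlapped. Every sample of both lay above those of Junb (40.2), for Jund by the transcript length used here. The samples of Junb lay above those of Fosl2 (21.1). Jun (12.5) and Atf3 (11.3) overlapped below them, followed by Egr1 (6.74), Fos (1.75), Fosl1 (0.972) and Fosb (0.0245), each without overlap with the next.

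The likeness of profiles was measured as the root mean square difference of log2(CPM + 0.5) over the 9 samples, each profile centered on its mean, among 12158 genes with a mean of at least 1 CPM. The nearest to Jun were Sh2d7 (0.161), Gm10069 (0.168) and Inca1 (0.172). Their means were 1.39, 1.08 and 1.90 CPM in MIN and 2.65, 2.55 and 3.81 in Adenoma, against 37.3 and 74.7 for Jun. At such levels the added 0.5 CPM flattens their profiles, so this likeness is not one of fold change. The nearest to Fos were Hsd3b3 (0.209), B3gnt5 (0.209) and Mrc1 (0.22). These fell from means of 3.18, 3.13 and 3.33 CPM in MIN to 0.01, 0.08 and 0.06 in Adenoma, and Fos from 27.4 to 3.37. At such low levels the added 0.5 CPM compresses the fall, so their likeness to Fos is not one of fold change. The nearest to Egr1 were Tmc7 (0.238), Tmem237 (0.292) and Frat2 (0.305). The median over all genes was 0.604 from Jun, 1.35 from Fos and 0.637 from Egr1. Among the 10 genes themselves, Fosl2 was nearest to Jun at 0.641, Egr1 to Fos at 1.04 and Fosb to Egr1 at 0.439. Each is the nearest of only 9 genes, so it cannot be set against the nearest of 12158. Fosb averaged 0.58, 0.40 and 0.09 CPM in MIN, Adenoma and Sulindac, under the 1 CPM minimum, where the added 0.5 CPM flattens its profile.

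The counts of the related lists below stand beside the shares over all genes, which were 18.5% higher and 20.1% lower in Adenoma against MIN, 8.32% and 9.1% in Sulindac against Adenoma and 23% and 26.8% in Sulindac against MIN. No list was tested as a set, and nothing particular to a list is read from its counts.

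Of the kinases and factors upstream, 21 of 22 listed MAP kinases, MAP kinase kinases and serum response factors were tested. In Adenoma against MIN, 4 were higher and 6 lower, or 3 lower with library size alone or without MIN replicate 2. Elk3, a ternary complex factor that partners with serum response factor, rose from 2.70 ± 0.06 to 35.2 ± 2.79 CPM (SD, n = 3), and Mapk12 (p38 gamma) rose from 0.99 ± 0.51 to 16.1 ± 4.20. Mapk13 (p38 delta) fell from 290 ± 44.0 to 117 ± 26.2 CPM, and Map2k6, which activates p38, fell from 27.6 ± 3.86 to 11.47 ± 3.33. Srf itself, the serum response factor, was lower in Adenoma (35.0 ± 0.95 CPM) than in MIN (49.4 ± 1.26, log2 -0.49, edgeR adjusted p = 0.0024), a call lost with library size alone and without MIN replicate 1, MIN replicate 2 or Adenoma replicate 2. It was higher in Sulindac (54.0 ± 1.66) than in Adenoma (log2 0.63, edgeR adjusted p = 0.00148). In that comparison Srf and Mapk9 (JNK2), at 93.4 ± 4.06 CPM in Sulindac and 53.6 ± 3.74 in Adenoma, were the 2 of the list that rose, and none fell, against 1 with library size alone or without Adenoma replicate 3. Against MIN, 6 were higher and 5 lower in Sulindac. The higher count was 3 without MIN replicate 2, Sulindac replicate 1 or Sulindac replicate 3, and the lower count was 2 without MIN replicate 1 or 2 or Sulindac replicate 2 or 3 and 3 without Sulindac replicate 1.

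Of 16 listed feedback inhibitors of MAP kinases, 15 were tested, with 4 higher (2 without MIN replicate 1) and 3 lower in Adenoma than MIN. Dusp6, the cytoplasmic ERK phosphatase that ERK itself induces, rose from 37.0 ± 6.78 to 108 ± 14.1 CPM (SD, n = 3, log2 1.55 ± 0.16 SE, edgeR adjusted p = 5.93e-05), and Dusp10, which acts on JNK and p38, rose from 4.77 ± 1.83 to 12.4 ± 2.25, a call lost without MIN replicate 1 or Adenoma replicate 3. Dusp5, the nuclear ERK phosphatase, fell from 8.47 ± 0.70 to 3.05 ± 0.46 CPM. In Sulindac against Adenoma 4 rose and none fell, among them Dusp4, another nuclear phosphatase, from 71.5 ± 2.77 to 183 ± 18.3 CPM, and Dusp8, which acts on JNK and p38, from 7.07 ± 1.07 to 13.3 ± 2.62. The 4 became 1 without Adenoma replicate 1 or 2 or Sulindac replicate 1 or 3, and 2 without Sulindac replicate 2. Dusp8 was not called when any of the first 4 of these libraries was left out, whereas the call of Dusp4 held in all 15 alternative analyses. With library size alone the list had 1 higher and 2 lower here, and Dusp8 was not called. Dusp6 was at 81.3 ± 3.93 CPM in Sulindac, not called against Adenoma (log2 -0.40, edgeR adjusted p = 0.0251), and Dusp1, a classic immediate early phosphatase, was at 9.79 ± 4.10, 7.52 ± 3.75 and 10.8 ± 3.38 CPM in MIN, Adenoma and Sulindac and was called in none of the 3 comparisons. Sulindac against MIN had 5 higher and 3 lower.

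Other immediate early genes were tested for 28 or 29 of 30 on the list. In Adenoma against MIN 5 were higher and 3 lower (8 higher without MIN replicate 3, 9 higher without replicate 3 of both groups, 1 lower without Adenoma replicate 3). Ctgf, a matrix protein, rose from 2.00 ± 0.79 to 31.6 ± 5.10 CPM (SD, n = 3). Zfp36l2 fell from 194 ± 16.5 to 55.8 ± 5.90, a call that held in all 16 alternative analyses. Klf10 fell from 65.5 ± 21.5 to 28.5 ± 3.29, a call lost without Adenoma replicate 3. In Sulindac against Adenoma 7 of 28 were higher and none lower, with a list median of 0.36 (log2) against -0.01 over all genes. Among them, Ctgf rose to 105 ± 41.0 CPM and Klf6, a zinc finger factor, from 55.3 ± 11.3 to 141 ± 30.2. In Sulindac against MIN 11 were higher, or 17 without MIN replicate 3, the library in which these genes were high. There 2 were lower, or 4 without MIN replicate 1 and 1 without Sulindac replicate 2. Those genes of the list most often used beside Fos and Egr1 were called in none of the 3 comparisons, namely Ier2 (64.5 ± 17.9, 41.0 ± 8.74 and 44.6 ± 2.89 CPM in MIN, Adenoma and Sulindac), Nr4a1 (9.11 ± 5.77, 11.51 ± 2.23 and 14.2 ± 1.76) and Zfp36 (43.5 ± 10.7, 38.8 ± 11.3 and 51.1 ± 3.45). Ier2 was called lower in Adenoma than in MIN with the replicate block (log2 -0.64, edgeR adjusted p = 0.00277), and lower in Sulindac than in MIN by DESeq2 and without MIN replicate 1. Without MIN replicate 3, Nr4a1 was called higher in both Adenoma and Sulindac than in MIN, and Zfp36 higher in Sulindac than in MIN. Zfp36 was also called higher in Sulindac than in Adenoma without Adenoma replicate 3.

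Of 14 other bZIP factors of the AP-1 and CRE families, 12 were tested in Adenoma against MIN, with 4 higher and 3 lower (1 lower without MIN replicate 1 or 2). Maff, a small Maf protein, rose from 20.1 ± 3.99 to 67.8 ± 19.2 CPM (SD, n = 3) and Maf from 10.1 ± 6.56 to 52.2 ± 13.4. Batf2 had 23 to 65 counts in the MIN libraries, 1 to 6 in Adenoma and 0 in all 3 of Sulindac. In Sulindac against Adenoma 2 of 11 were higher (Jdp2 and Mafk) and 1 lower, with 1 higher when any library but Adenoma replicate 3 or Sulindac replicate 3 was left out and 0 without Sulindac replicate 3. Jdp2, a Jun dimerization partner that represses AP-1 sites, rose from 12.05 ± 4.77 to 43.1 ± 6.17 CPM, a call lost without Sulindac replicate 2 or 3. Crem fell from 6.42 ± 0.49 to 3.71 ± 0.29, a call lost when any of the 6 libraries was left out. In Sulindac against MIN 4 of 12 were higher (2 without MIN replicate 2 or Sulindac replicate 3) and 4 lower.

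Of the textbook AP-1 target genes, 7 of 17 tested were higher and 4 lower in Adenoma than MIN, against 18.5% and 20.1% of all genes. Their median log2 change was 0.26, beside -0.01 over all genes. Mmp7, the matrix protease of adenoma epithelium, rose from 187 ± 6.23 to 704 ± 117 CPM (SD, n = 3) and Mmp14 from 5.96 ± 1.86 to 117 ± 5.12. Vim, an intermediate filament gene, rose from 3.66 ± 0.98 to 175 ± 78.7 CPM. Of the 6 fibroblast and muscle markers, Col1a1 and Pdgfra also had more counts in every Adenoma sample than in any MIN sample, while Col1a2, Col3a1 and Dcn were at 0 in all samples, and the part of such cells in the level of Vim was not tested. Areg, an EGF receptor ligand, fell from 129 ± 101 to 14.7 ± 3.99 CPM, a call lost without Adenoma replicate 1. Ereg, another ligand of that receptor, had 188 to 397 counts in the MIN libraries and 0 in those of Adenoma, and Ptgs2, the inducible cyclooxygenase, had 20 to 29 and 0.

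In Sulindac against Adenoma 4 of 15 AP-1 targets were higher and 3 lower. Vim fell to 5.02 ± 3.08 CPM (SD, n = 3), Mmp7 to 157 ± 31.01 and Mmp14 to 53.6 ± 3.55, whereas Areg rose to 128 ± 35.3 and Plaur, the urokinase receptor, from 15.6 ± 2.86 to 56.3 ± 6.45. Ereg and Ptgs2 remained at 1 count or less in every Sulindac library. Areg in Sulindac overlapped its MIN level, with a log2 difference of -0.01 ± 0.47 SE, while no Fos sample of Sulindac reached a MIN sample. Of the 17 tested in Sulindac against MIN, 6 were higher, or 10 without MIN replicate 3, and 3 lower.

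The heat shock genes, listed because handling can induce them, had 1 higher (3 with library size alone) and 3 lower of 11 in Adenoma against MIN. Hspb1 rose from 0.13 ± 0.06 to 3.31 ± 0.71 CPM (SD, n = 3), and Hspa1a and Hspa1b, near-identical copies whose reads may be split between them, had 48 to 113 and 195 to 303 counts in MIN but 0 to 3 and 0 to 6 in Adenoma. In Sulindac against Adenoma none of the 9 tested was called, and in Sulindac against MIN 3 were higher and 4 lower. The MIN samples thus had more Fos, Hspa1a and Hspa1b, but less Hspb1, than the samples from polyps. The part of handling in these levels was not tested.

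**Figure D4:**
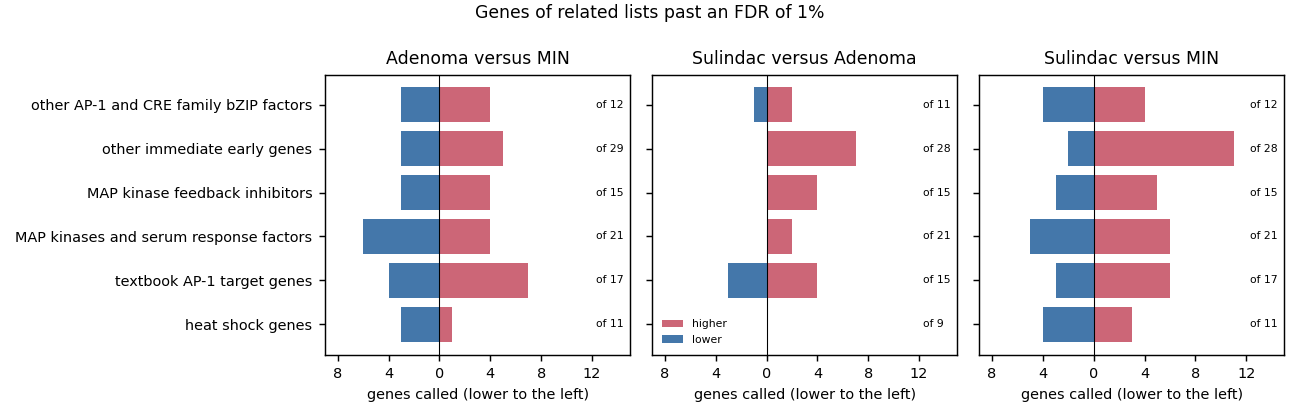
Number of genes of each related list called higher (red, to the right) and lower (blue, to the left) at an FDR of 1% by edgeR in the 3 comparisons, with the number tested at the right of each row. In Sulindac versus Adenoma 7 other immediate early genes, 4 feedback inhibitors and 2 MAP kinases or serum response factors were higher and none of these lists had a gene lower. The 4 feedback inhibitors became 1 or 2 when any library but Adenoma replicate 3 was left out, and with library size alone 2 feedback inhibitors and 1 MAP kinase or serum response factor were lower.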

How the data were processed

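RNA was extracted with a miRNeasy kit from 9 mouse organoid samples and sequenced on standard Illumina libraries. The authors deposited 1 table of raw counts, the number of reads per gene symbol, with no normalization. The submitters' processing notes name RSEM, Bowtie2 2.2.4 and the build mm9. The annotation and the use of read strand are not given in the sources used here. Groups and replicate numbers came from sample titles. MIN replicate 1 has 3 columns, of which the last is the sum of its 2 runs in all 23955 rows (chi-square per gene between runs 1.19) and was used as 1 sample. In 27 rows the symbol had become a date, and these were kept unnamed.

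Genes were filtered with filterByExpr, normalized by TMM and tested with edgeR 4.0.16 (glmQLFit, robust, glmQLFTest) in R 4.3.3, with Benjamini-Hochberg adjustment over all genes tested. The FDR of 1% is that of the study. CPM values use TMM factors over all 9 samples. Log2 levels add 0.5 CPM. Depth covers counting error only. Gene lengths, overlaps and shared 50-base stretches came from GENCODE M21, and promoters and gene positions from RefSeq (GRCm38.p6). On simulated counts for Adenoma versus MIN (13744 genes), 57 of 100 genes changed by a log2 of 1 and 87 of 98 changed by 2 were recovered, with 2 false calls. The changed genes were drawn from all genes tested, whose median SE was 0.16 against 0.36 for the 10 genes. These shares are therefore not those of the 10 genes.

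The 10 genes and the lists were chosen with earlier results of these data known. Other genes named are, per list and comparison, at most the 2 largest changes in each direction without overlap, plus Srf, Dusp1, Dusp6, Ier2, Nr4a1 and Zfp36. A gene that met this rule in 1 comparison may also be given in another. Deviations of same-numbered MIN and Adenoma samples, by their titles, correlated weakly (0.13, 0.12 and 0.19 for replicates 1, 2 and 3), and the block is given there. Alternatives were normalization by RLE or by library size alone, a fit with no filter on low counts, a filter of 10 counts in every sample, 1 fit of all 9 samples, the replicate block, DESeq2 1.42.0, thresholds of 5% FDR and of 2-fold, leaving out each sample, and, chosen after seeing the data, leaving out replicate 3 of both MIN and Adenoma.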

Additional observations from a re-analysis of the deposited data

How the results depend on the processing

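Of the 427 single-gene values of the 10 genes under the alternatives, 388 kept their side of the threshold, 27 gained a call and 12 lost one, and none that was called changed sign. In Adenoma versus MIN, the number of the 10 genes called higher went from 1 to 0 with no low-count filter and with at least 10 counts in every sample, and the number called lower went from 1 to 2 with DESeq2 and with an FDR of 5%. Leaving out 1 sample at a time gave 0 to 1 higher. With both replicates 3 left out, Jun was not called (log2 1.12, edgeR adjusted p = 0.0733) and Ier3 was (1.11, edgeR adjusted p = 0.000299). Library size alone moved the median log2 of all genes to 0.12, and the uncalled estimates of Junb and Fosl2 in this comparison and of Fos in Sulindac versus Adenoma changed sign with it.

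In Sulindac versus Adenoma, genes called higher and lower were 603 and 1983 with library size alone, 1775 higher with DESeq2, 2034 and 2374 at an FDR of 5% and 365 and 703 with a minimum of 2-fold. Leaving out 1 sample gave 423 to 1403 higher and 386 to 1488 lower, with the fewest without Sulindac replicate 3 and the most without Adenoma replicate 3. Of the 10 genes, 1 was called higher with no low-count filter, 3 with DESeq2, 4 at an FDR of 5% and 0 to 3 on leaving out 1 sample, and 1 was called lower with DESeq2, at an FDR of 5% and in 0 to 1 on leaving out 1 sample.

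In Sulindac versus MIN, a minimum of 2-fold left 1501 genes higher and 2104 lower. Of the 10 genes, 0 were called higher with no low-count filter, 2 with DESeq2, 4 at an FDR of 5% and 0 to 5 on leaving out 1 sample, and 2 were called lower with no low-count filter, 1 fit of all 9 samples and DESeq2 and 1 to 2 on leaving out 1 sample. The second lower gene was Fosb, which needs these settings to be tested. The causes of these changes were not tested beyond what each setting does.

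With the replicate block, 2531 genes were higher and 2733 lower in Adenoma versus MIN, 872 and 1061 in Sulindac versus Adenoma and 3280 and 3791 in Sulindac versus MIN. Same-numbered correlations were 0.13, 0.12 and 0.19 for Adenoma and MIN. They were 0.25, 0.21 and -0.08 for Sulindac and Adenoma and -0.03, 0.40 and 0.26 for Sulindac and MIN. Only for Adenoma and MIN were all 3 positive. What a number marks is not stated, so pairing was established in no comparison. In the comparisons with Sulindac, the block changed no call of the 10 genes.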
